A study of Mus musculus with 19 samples.

Results

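The 44 genes described here drive or accompany cell division, from entry into the cycle through DNA replication to mitosis and cytokinesis. They were taken by name from a list made by function. That list was chosen with earlier results of these data known, so counts within it are descriptions. All 44 were found, by gene symbol, among the 24192 genes of the 4 joined tables. They were read in RNA from whole livers of 19 adult mice in 4 groups. The LF-C group held 4 control mice on the LFCF diet, which is low in fat, and the LF-KO group held 4 mice on the same diet labelled as lacking PPARgamma in hepatocytes. The HF-C group held 5 control mice on the HFCF diet, rich in fat, cholesterol and fructose, which is used to produce nonalcoholic steatohepatitis (NASH). The HF-KO group held 6 mice on the HFCF diet labelled as hepatocyte PPARgamma knockouts. The knockout was induced in adult mice ahead of 24 weeks of HFCF feeding, and PPARgamma is a nuclear receptor that turns on lipid storage genes. The sources used here do not give how it was induced, which part of the gene was removed or the sex of the mice. The comparisons ask how the diet and the knockout each bear on liver gene expression.

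Adult hepatocytes are mostly quiescent and re-enter the cell cycle after injury or loss of tissue. Cyclin D1 with its kinase partners moves a cell through G1, E2F factors then switch on the genes of DNA synthesis, and the later genes of G2 and mitosis are switched on in turn by B-MYB and FOXM1 with the MuvB complex. In many mitotic promoters that complex binds an element called the CHR, near CCAAT boxes bound by NF-Y. In quiescent cells the same promoters are held down by a related complex, DREAM. The genes fall into 7 roles, which were grouped by phase into 4 G1 genes (Ccnd1, Ccne1, Ccne2 and E2f1), 11 S phase genes for nucleotide supply and replication, and 29 genes of G2 and mitosis.

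Promoter sequences were searched for the letters of these elements. RefSeq windows (GRCm38.p6) of 300 bases, from 250 before to 50 after the annotated start, were found for 36 of the 44 genes, with 38 windows in all. They were searched on both strands for the CHR letters TTTGAA, for CCAAT and for 4 spellings of an E2F site (TTTCCCGC, TTTCGCGC, TTTGCCGC and TTTGGCGC). The CHR letters were present in 18 of the 25 windows of G2 and mitosis genes (72%), in 1 of the 11 windows of S phase genes (9.09%) and in 17.9% of all 32851 windows. CCAAT was present in 80% of the G2 and mitosis windows, 81.8% of the S phase windows and 37.4% of all windows. An E2F spelling was present in 4 of the 11 S phase windows (36.4%), in 1 of the 25 G2 and mitosis windows (4%) and in 2.26% of all windows. A match is a match of letters and not a measured binding site. For 33 of the 38 windows the last bases were found near the start of an annotated transcript. Ccnd1, Ccne2, Ccna2, Foxm1, Mcm4, Aurkb, Kif20a and Tpx2 were not analysed in this way.

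The 250 bases before the start are printed for 5 genes with and without these letters, 5′ to 3′, with every match to one of the searched spellings in capitals. Mki67 and Mad2l1 had the highest mean CPM (a measure defined below that does not correct for gene length) of the G2 and mitosis genes with a window, Mcm7 came after Pcna among the replication genes, and Top2a and Mcm6 were added after the matches were seen. Windows that overlap an annotated exon, including that of Pcna and another window of Mcm7, are not printed.
Mki67, chr7:135716380-135716629, minus strand: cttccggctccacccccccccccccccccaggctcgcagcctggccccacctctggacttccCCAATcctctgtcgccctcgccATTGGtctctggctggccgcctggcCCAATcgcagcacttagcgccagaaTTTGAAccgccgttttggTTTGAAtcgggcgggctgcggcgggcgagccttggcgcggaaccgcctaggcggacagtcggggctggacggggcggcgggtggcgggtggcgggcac
Top2a, chr11:99024190-99024439, minus strand: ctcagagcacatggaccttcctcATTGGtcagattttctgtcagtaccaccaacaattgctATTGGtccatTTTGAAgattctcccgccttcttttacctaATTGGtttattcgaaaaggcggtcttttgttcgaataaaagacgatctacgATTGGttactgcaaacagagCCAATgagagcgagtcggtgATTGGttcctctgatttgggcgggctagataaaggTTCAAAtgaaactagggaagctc
Mad2l1, chr6:66534971-66535220, plus strand: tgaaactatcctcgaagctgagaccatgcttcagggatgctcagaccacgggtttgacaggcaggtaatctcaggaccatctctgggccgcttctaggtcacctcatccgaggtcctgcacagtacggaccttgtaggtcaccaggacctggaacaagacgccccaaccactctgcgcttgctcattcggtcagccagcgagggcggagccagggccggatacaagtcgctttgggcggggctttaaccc
Mcm6, chr1:128359706-128359955, minus strand: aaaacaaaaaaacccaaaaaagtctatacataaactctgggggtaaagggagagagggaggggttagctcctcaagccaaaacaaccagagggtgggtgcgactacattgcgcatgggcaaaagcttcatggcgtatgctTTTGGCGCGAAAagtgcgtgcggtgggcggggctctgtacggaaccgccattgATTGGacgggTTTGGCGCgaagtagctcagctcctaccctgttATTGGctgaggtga
Mcm7, chr5:138171267-138171516, minus strand: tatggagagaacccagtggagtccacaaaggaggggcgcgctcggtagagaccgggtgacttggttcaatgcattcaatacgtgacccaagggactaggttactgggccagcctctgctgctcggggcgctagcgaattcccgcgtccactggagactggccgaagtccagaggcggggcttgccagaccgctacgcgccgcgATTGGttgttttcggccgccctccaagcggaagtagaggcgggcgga
The Mki67 stretch holds 2 CHR matches, starting 116 and 98 bases before the start, downstream of 3 CCAAT matches. That of Top2a holds 2 CHR matches, the nearer starting 23 bases before the start, and 6 CCAAT matches. No searched spelling is present in the Mad2l1 stretch. The Mad2l1 window ended at 66535270, before the deposited start of the gene at 66535390, so bases next to that start were not searched. Mcm6 holds 3 E2F matches, of which those starting 110 and 106 bases before the start overlap on opposite strands, and the printed Mcm7 stretch holds 1 CCAAT match.

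The libraries held 11437875 to 20711869 counted fragments. Levels are given as CPM (fragments of a gene relative to the total of its library), scaled by the trimmed mean of M values (TMM), and 1 library stood apart, LF-C replicate 2, with a TMM factor of 0.611 against 0.858 to 1.216 in the others. The Pparg count went against the knockout labels. It was 5.92 to 19 CPM in LF-C, 11.6 to 41.1 CPM in LF-KO, 20.6 to 31.4 CPM in HF-C and 47.1 to 107 CPM in HF-KO. On the log2(CPM + 1) scale, HF-KO was 1.34 higher than HF-C, higher in 6 of 6 libraries (two-sided exact permutation p = 0.00216, the smallest that 462 splits allow), and LF-KO was 0.98 higher than LF-C (exact p = 0.2, smallest possible 0.0286). A count over the whole gene does not separate a removed part from the rest, so LF-KO and HF-KO name libraries by their label. All 10 hepatocyte markers were detected in each group, with albumin (Alb) at a mean of 32200 to 77200 CPM.

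By length-normalised level (the deposited FPKM, fragments per kilobase of gene and per depth of the library), Pcna was the highest of the 44 genes in both control groups, with a mean of 16.5 FPKM in LF-C and 25.5 FPKM in HF-C. Tk1 was next in LF-C at 12 FPKM, and Ccnd1 was next in HF-C at 23.1 FPKM, from 4.18 FPKM in LF-C. Many of the mitotic genes were scarce, though Cdc20, Mad2l1 and Cdca3 averaged 4, 3.83 and 3.26 FPKM in HF-C. Mki67 averaged 0.166 FPKM in LF-C and 1.76 FPKM in HF-C, and Plk1 averaged 0.236 FPKM in LF-C and 1.67 FPKM in HF-C. Of the 44 genes 10 overlap another listed gene, and since the libraries keep no strand, shared reads cannot be assigned: Ccnd1 (with Oraov1), Ccne2 (Ints8), Ccna2 (Exosc9), Tk1 (Afmid), Mcm7 (Cops6 and Ap4m1), Cdca8 (9930104L06Rik), Cdc20 (Elovl1), Kif20a (Cdc23), Nusap1 (Oip5) and Prc1 (6330403N20Rik).

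Summed over the G2 and mitosis genes, both HF groups lay above both LF groups and HF-C above HF-KO, while the LF groups overlapped each other. The 29 G2 and mitosis genes together made 20.9 to 41.3 CPM in LF-C and 24.1 to 35 CPM in LF-KO, against 95.1 to 128 CPM in HF-C and 55.3 to 86.7 CPM in HF-KO. No library of HF-KO reached HF-C, and none fell as low as an LF library. The 11 S phase genes made 112 to 156 CPM in LF-C, 112 to 136 CPM in LF-KO, 128 to 144 CPM in HF-C and 117 to 138 CPM in HF-KO, so that all groups overlapped. Pcna and Tk1 have the most weight in that sum in LF-C, and they averaged 29.1 and 37.6 CPM in LF-C and 34.1 and 14.1 CPM in HF-C. The 4 G1 genes, Ccnd1 among them, made 13 to 34.8, 22.3 to 53.8, 66 to 107 and 40.3 to 66.8 CPM in the same order. Ccnd1 has the most weight in that sum. It averaged 17.3 CPM in LF-C and 75.6 CPM in HF-C, where the sum averaged 25.4 and 84.6 CPM.

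**Figure D1:**
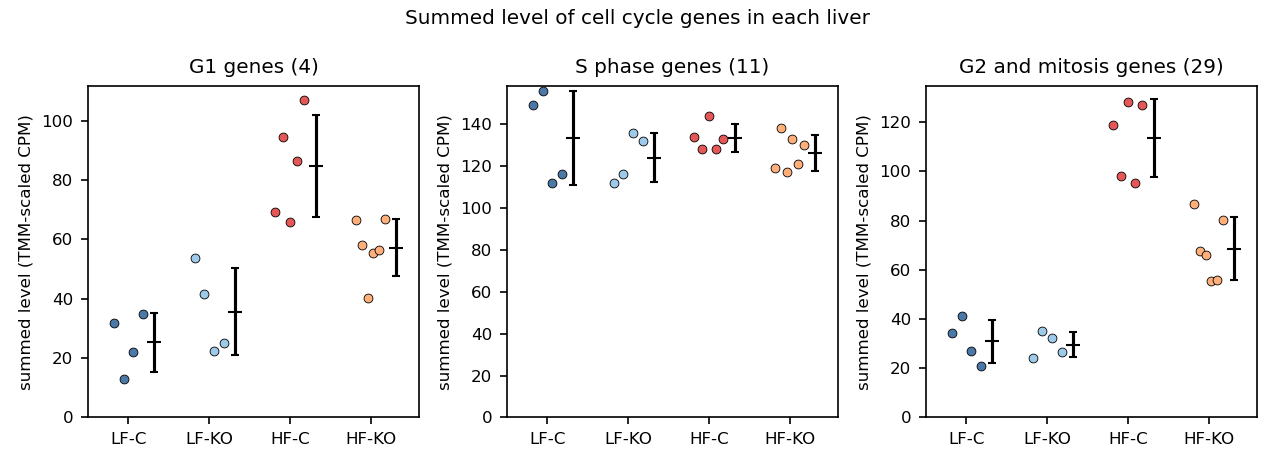
Summed level in TMM-scaled CPM (y axis) of the G1, S phase and G2 and mitosis genes in each library (points) of the 4 groups (x axis), with the mean and SD beside them. In the G2 and mitosis panel the 5 HF-C livers lie between 95.1 and 128, above the 6 HF-KO livers at 55.3 to 86.7, and the 8 LF livers lie between 20.9 and 41.3.

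In control livers most of the mitotic genes, Ccnd1 and 5 of the helicase genes were higher on the HFCF diet. In HF-C against LF-C, 29 of the 44 genes were higher at an adjusted p under 0.05 in edgeR's quasi-likelihood test, where 10.6% of all tested genes were higher, and 1 was lower, Tk1, where 7.15% of all tested genes were lower. The largest rises were those of Hmmr, a spindle and hyaluronan-binding protein (log2 fold change 4.35 ± 0.53 SE, adjusted p = 0.00068), Ccna2, the cyclin of S phase and G2 (3.37 ± 0.45, adjusted p = 0.000925), and Ccnb1, the mitotic cyclin (3.22 ± 0.36, adjusted p = 0.000455). Of the 29 G2 and mitosis genes 23 were higher and none was lower, of the 11 S phase genes 5 were higher and 1 lower, and of the 4 G1 genes Ccnd1 was higher. Melk, a kinase of mitotic cells, was below the filter on low counts. Of the 43 genes tested, 8 passed that filter through HF-C alone, with no LF-C library over its cutoff. They were Hmmr, Ccna2, Ccnb1, Foxm1, Aurkb, Bub1, Cenpe and Cenpf. Passing in this way favours a rise, though Bub1 was not called. Other genes reached the cutoff in only some LF-C libraries, such as Plk1 in 2 and Mki67, Top2a, Cdc20 and Cdk1 in 3. Those were too few to pass without HF-C, so the filter leans the same way for them. Many of the calls higher are of such genes. The Hmmr value was 5.40 without LF-C replicate 2. Without the filter 30 genes were higher and 1 lower (6.36% and 3.64% of all genes), and the median log2 fold change over the 44 genes was 1.89, beside 0.09 over all genes. The groups did not overlap for 31 of the 44 genes, all wholly higher in HF-C, where 12.9% of all tested genes lay so. Leaving out 1 library at a time left 24 to 33 genes higher (33 without LF-C replicate 2), and 24 of the 30 calls held whichever library was left out; Kif20a was lost without LF-C replicate 1. The authors' deposited table has 33 higher and 1 lower at the same threshold, where 11.1% and 11.8% of its genes were.

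Scaling by library size alone moved the median of all genes in this comparison from 0.02 to 0.43 on the log2 scale, and the calls over all genes from 1470 higher and 988 lower to 2730 higher and 326 lower. Under it 33 of the 44 genes were called higher, and Tk1 was still called lower. DESeq2 gave 1852 higher and 2018 lower over all genes. In the other comparisons library size alone moved the median of all genes from 0.01 to 0.19 for HF-KO against LF-KO (calls from 493 higher and 144 lower to 903 and 49) and from 0.02 to -0.11 for HF-KO against HF-C (from 605 higher and 755 lower to 345 and 1016); fold changes below are relative to TMM scaling. A bulk measurement cannot tell more dividing cells apart from more RNA of these genes per cell.

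In the livers labelled knockout 15 of the 44 genes were higher on the HFCF diet, and those calls in edgeR depend on single libraries. In HF-KO against LF-KO 0 genes were lower beside the 15 higher, where 3.62% of all tested genes were higher and 1.06% lower. They were Ccnb1, Cdk1, Mcm5, Plk1, Cdc20, Cdca3, Cenpe, Kif11, Kif20a, Kif23, Tpx2, Prc1, Hmmr, Mki67 and Top2a, with the largest rises in Ccnb1 (log2 fold change 2.36 ± 0.54, adjusted p = 0.0319), Hmmr (2.24 ± 0.59, adjusted p = 0.0493) and Plk1 (2.00 ± 0.47, adjusted p = 0.034). Of the 42 genes tested, 3 passed the filter through HF-KO alone, with no LF-KO library over its cutoff (Ccnb1, Plk1 and Aurkb). Others reached the cutoff in only some LF-KO libraries, such as Hmmr, Cenpe, Kif20a and Tpx2 in 1 and Cdk1, Cdc20 and Kif23 in 2. Those were too few to pass without HF-KO, which favours a rise for them too. The Hmmr value was 3.09 without LF-KO replicate 2. Without the filter 13 were higher (1.95% of all genes), with a median of 1.18 over the 44 genes beside 0.08 over all genes. For 19 of the 44 genes HF-KO lay wholly above LF-KO, where 4.77% of all tested genes did. Without LF-KO replicate 3 or without LF-KO replicate 4 the count was 0, where all genes together had 0 and 4 calls. It was 6 without LF-KO replicate 1, 7 without HF-KO replicate 1 and 5 without HF-KO replicate 6. DESeq2 called 23 genes higher, and 17 and 16 without LF-KO replicate 3 and replicate 4, and the authors' deposited table has 24 higher, where 5.67% of its genes were.

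**Figure D2:**
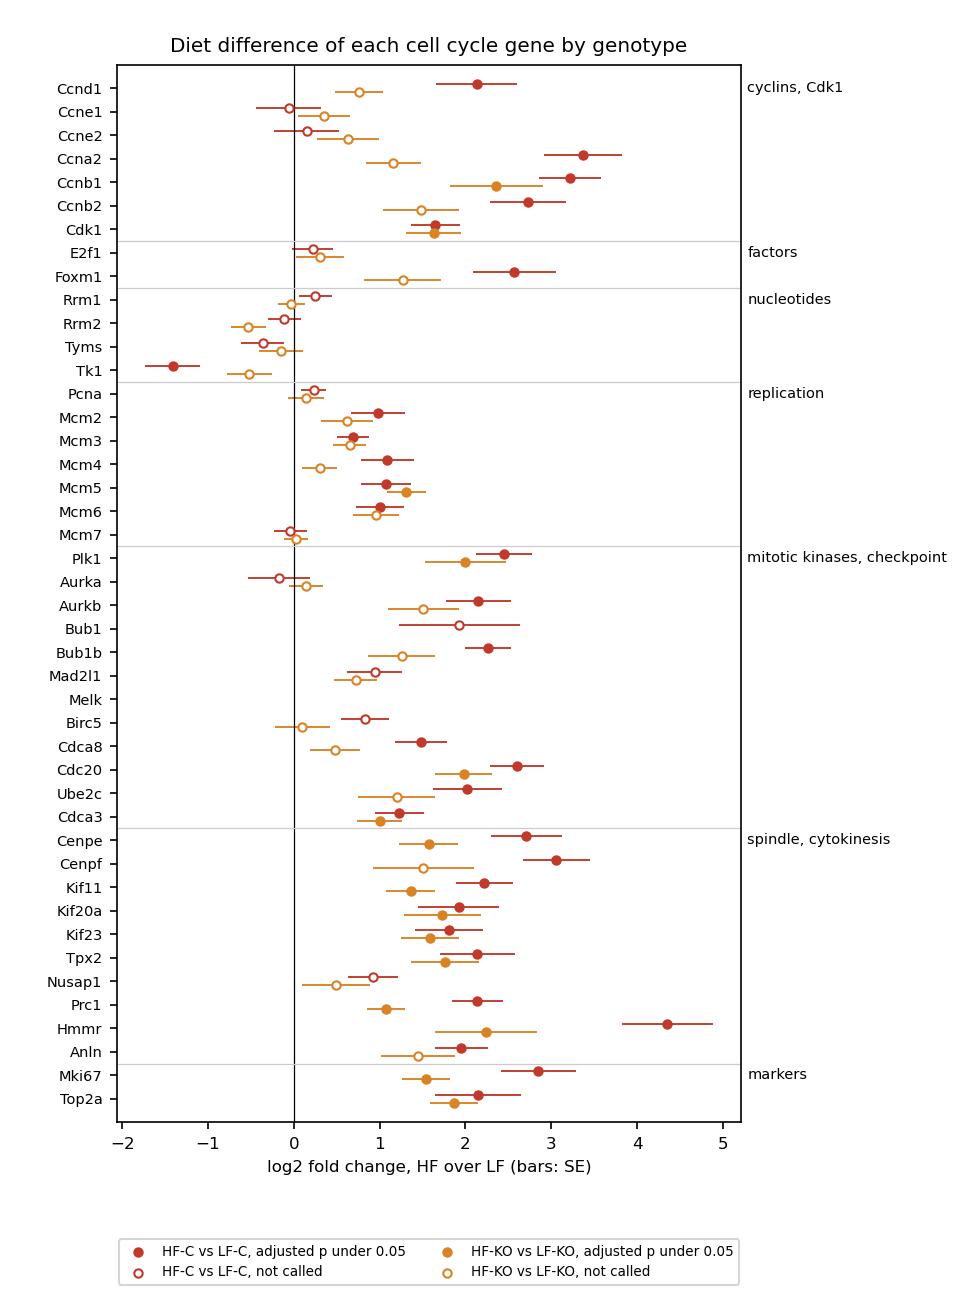
Log2 fold change of HF over LF (x axis) with its standard error for each gene (y axis, grouped by role) in control livers (red) and in livers labelled knockout (orange), with filled points for adjusted p under 0.05 in edgeR. Mitotic kinases, spindle genes and markers lie mostly above 1 in both colours, while nucleotide supply genes, Pcna and Mcm7 lie near or below 0; Melk, and Bub1 in orange, were below the filter.

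On the HFCF diet the livers labelled knockout had lower levels of 11 of the 44 genes than the controls. In HF-KO against HF-C 11 were lower and 0 higher, where 5.43% of all tested genes were lower and 4.35% higher. The 11 were Ccnd1, Mcm2, Plk1, Aurkb, Cdca8, Cdc20, Cdca3, Tpx2, Prc1, Mki67 and Top2a, with the largest falls in Aurkb (log2 fold change -1.36 ± 0.24, adjusted p = 0.0047), Plk1 (-1.33 ± 0.27, adjusted p = 0.01) and Tpx2 (-1.07 ± 0.24, adjusted p = 0.0152). All 29 G2 and mitosis genes had fitted values below 0 when no filter was used, with a median of -0.73 beside 0.01 over all genes, and 9 of them passed the test. The count was 11 without the filter too, where 3.02% of all genes were lower, and 14 in the authors' deposited table, where 7.87% of its genes were. Groups did not overlap for 7 of the 44 genes, where 5.57% of all tested genes lay wholly lower. Aurkb, Cdc20, Cdca8, Mki67, Plk1 and Tpx2 were called whichever single library was left out. The count was 7 without HF-C replicate 1, 6 without HF-C replicate 5, 7 without HF-KO replicate 3 and 7 without HF-KO replicate 5, and 4 when all 19 libraries shared 1 fit. The diet contrasts use the same HF-C and HF-KO libraries, so they are not independent of this comparison.

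**Figure D3:**
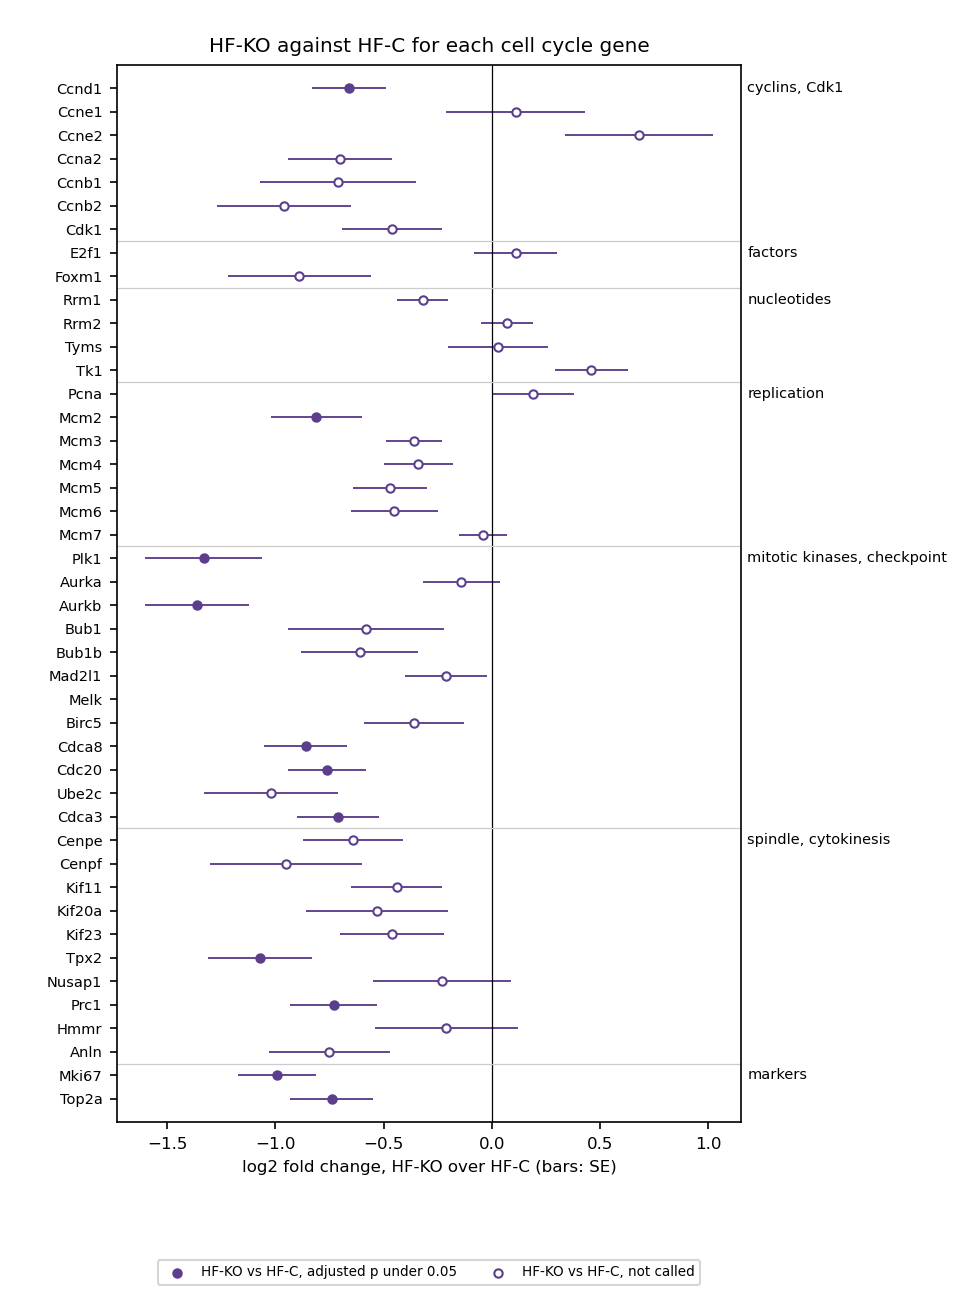
Log2 fold change of HF-KO over HF-C (x axis) with its standard error for each gene (y axis, grouped by role), with filled points for adjusted p under 0.05 in edgeR. The 11 filled points all lie below 0, from -0.66 for Ccnd1 to -1.36 for Aurkb, and nucleotide supply genes lie on both sides of 0.

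On the LFCF diet no difference by knockout label passed the test in these genes. In LF-KO against LF-C 31 of the 44 passed the filter and 0 were called, where 0% of the 13056 tested genes were called by edgeR. At an unadjusted p under 0.05 there was 1 of the 44 genes, Ccna2 (log2 fold change 1.48 ± 0.54, adjusted p = 0.704), beside 4.24% of all genes. Ccna2 passed the filter through LF-KO alone, where it was the higher. DESeq2 called 0 of the 44 and 5 genes in all. The authors' deposited table calls 0 of the 44, where 0.00925% of its genes were higher and 0.0139% lower. The diet contrasts of the genotypes were then compared directly, as the difference of their log2 fold changes in a fit of all 19 libraries. None of the 44 genes passed (0.202% of all genes did), 8 had an unadjusted p under 0.05 (12.9% of all genes did), and 35 of 44 fitted values were negative. Ccna2 had the smallest p, with a diet rise smaller by 2.20 ± 0.54 on the log2 scale in the livers labelled knockout (log2 value -2.20, adjusted p = 0.0928). It passed in DESeq2 (adjusted p = 0.0142) and without LF-C replicate 2 (adjusted p = 0.0396). The Ccna2 value rests on few LF fragments, 2, 8, 1 and 6 in the LF-C libraries and 11 to 15 in LF-KO. The smaller number of diet calls in the livers labelled knockout is therefore not shown to be a smaller response.

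Among the cyclins and their kinase, Ccnd1 (cyclin D1, chr7:144929931-144939869 in the deposited tables) had the highest FPKM, with a mean of 12.6 over all libraries. Its level was 25.1, 3.64, 13.1 and 27.3 CPM in LF-C and 46.4, 30.5, 16 and 18.1 CPM in LF-KO. With HFCF feeding it was at 59.9, 83.7, 58, 79 and 97.2 CPM in HF-C and 30.2 to 56.4 with a median of 47.2 CPM in HF-KO. Every HF-C liver lay above every other liver, while HF-KO and LF-KO overlapped. Ccnd1 was 4.37-fold higher in HF-C than in LF-C (log2 fold change 2.13 ± 0.47, adjusted p = 0.0118) and 1.58-fold lower in HF-KO than in HF-C (-0.66 ± 0.17, adjusted p = 0.0306), with 0.76 ± 0.28 and adjusted p = 0.154 for HF-KO against LF-KO. Cdk1, the kinase that drives mitosis, was at 1.73, 1.03, 0.817 and 1.2 CPM in LF-C and 0.639, 1.22, 0.896 and 0.6 CPM in LF-KO. In HF-C its level was 2.82, 4.02, 4.67, 2.9 and 4.15 CPM, and it ran from 1.69 to 3.42 with a median of 2.76 CPM in HF-KO. The HF libraries lay above the LF libraries in each genotype, by 3.14-fold in controls (adjusted p = 0.00408) and 3.1-fold in livers labelled knockout (adjusted p = 0.0191), and HF-KO overlapped HF-C. The E-type cyclins of G1 to S passage, Ccne1 and Ccne2, had adjusted p values of 0.934 and 0.817 for HF-C against LF-C, with levels of 0.633 to 2.62 CPM in the control livers of both diets. Ccnb2, the other B-type cyclin measured, was 2.73 ± 0.44 higher on the log2 scale in HF-C (adjusted p = 0.00235).

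Of the transcription factors, Foxm1, which drives mitotic genes, moved with them in control livers and E2f1, which drives S phase genes, did not pass a test. Foxm1 was at 0.51, 0.949, 0.34 and 0.133 CPM in LF-C and 0.319, 0.795, 0.822 and 0.525 CPM in LF-KO. The HF-C livers held 3.16, 2.74, 2.59, 1.7 and 3.96 CPM, and the range was 0.522 to 2.67 with a median of 1.53 CPM in HF-KO. HF-C lay above LF-C without overlap (log2 fold change 2.57 ± 0.48, adjusted p = 0.00488), and HF-KO overlapped both LF-KO (adjusted p = 0.134) and HF-C (-0.89 ± 0.33, adjusted p = 0.101). Against LF-C, Foxm1 passed the filter through HF-C alone, which favours a rise. E2f1 was at 3.57, 6.48, 6.4 and 3.93 CPM in LF-C and 4.92, 8.14, 2.99 and 4.27 CPM in LF-KO. Under HFCF feeding, HF-C reached 7.05, 6.81, 5.55, 4.55 and 5.86 CPM, against 3.83 to 7.92 with a median of 6.33 CPM in HF-KO. All 4 groups overlapped, and the log2 fold change of HF-C against LF-C was 0.22 ± 0.24 (adjusted p = 0.559).

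None of the 4 nucleotide supply genes was called higher in a comparison. Tk1, the thymidine salvage kinase, was at 40.3, 60.9, 19.8 and 29.4 CPM in LF-C and 21.4, 12.7, 35.2 and 39.7 CPM in LF-KO. With HFCF feeding it was at 11.1, 15, 21, 10.8 and 12.7 CPM in HF-C and 16.4 to 22.9 with a median of 17.9 CPM in HF-KO. HF-C was 2.66-fold lower than LF-C (log2 fold change -1.41 ± 0.32, adjusted p = 0.0128), with 1 HF-C library above the lowest LF-C library. Without HF-C replicate 3, Tk1 was called higher in HF-KO than in HF-C (log2 fold change 0.64, adjusted p = 0.0211), against 0.46 ± 0.17 and adjusted p = 0.107 with it. Rrm1, the large subunit of ribonucleotide reductase, was at 15, 8.3, 14 and 11.8 CPM in LF-C and 12.5, 9.79, 10.9 and 13.7 CPM in LF-KO. In HF-C its level was 16.4, 12.8, 15.4, 13.9 and 14.6 CPM, and it ran from 9.41 to 13.5 with a median of 11.6 CPM in HF-KO. The groups overlapped, with 0.25 ± 0.19 for HF-C against LF-C (adjusted p = 0.386). Rrm2, its small subunit, and Tyms, the thymidylate synthase, had log2 fold changes of -0.11 and -0.36 in the same comparison (adjusted p = 0.705 and 0.339).

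Of the replication genes, Mcm2 to Mcm6, which with Mcm7 encode a single helicase, were called higher in HF-C than in LF-C, and Mcm7 and Pcna were not called. A difference between these genes was not tested. Pcna, the sliding clamp of DNA polymerase (chr2:132249162-132253314), was at 29.7, 25.2, 30.8 and 30.7 CPM in LF-C and 30.3, 37.1, 38.2 and 31.7 CPM in LF-KO. The HF-C livers held 32.5, 31, 39.8, 35.6 and 31.6 CPM, and the range was 28.8 to 58.2 with a median of 33.1 CPM in HF-KO. HF-C lay just above LF-C, but the difference of 0.23 ± 0.15 on the log2 scale did not pass (adjusted p = 0.299). Mcm7 was at 19.8, 17.3, 13.7 and 10.5 CPM in LF-C and 13.7, 13, 14.7 and 13.9 CPM in LF-KO. Under HFCF feeding, HF-C reached 14.9, 15.7, 15.5, 14.2 and 13.9 CPM, against 12 to 16.3 with a median of 14.1 CPM in HF-KO. All groups overlapped (-0.04 ± 0.19 for HF-C against LF-C, adjusted p = 0.907), and Mcm7 overlaps Cops6, with a mean of 1807.6 counts against its own 227.3, and Ap4m1.

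Mcm2 was at 8.57, 4.98, 2.86 and 3.53 CPM in LF-C and 4.66, 4.59, 2.32 and 2.55 CPM in LF-KO. With HFCF feeding it was at 10.3, 10.8, 7.11, 10.5 and 10 CPM in HF-C and 2.79 to 7.43 with a median of 5.74 CPM in HF-KO. It was 1.97-fold higher in HF-C than in LF-C with 1 library of each overlapping (log2 fold change 0.98 ± 0.31, adjusted p = 0.0499), and 1.75-fold lower in HF-KO than in HF-C (-0.81 ± 0.21, adjusted p = 0.0322). Mcm3, Mcm4, Mcm5 and Mcm6 were 0.69 to 1.09 higher on the log2 scale in HF-C. None of the calls for Mcm2 to Mcm6 held whichever library was left out, and those for Mcm2, Mcm3 and Mcm6 were also lost under median-of-ratios scaling. Mcm5 was the replication gene called in both diet contrasts, and its values are given for that reason, after they were seen. It was at 4.28, 2.61, 2.52 and 1.53 CPM in LF-C and 1.66, 2.02, 1.49 and 1.27 CPM in LF-KO. In HF-C its level was 5.98, 5.47, 5.91, 4.27 and 6.84 CPM, and it ran from 2.96 to 5.25 with a median of 4.05 CPM in HF-KO. HF-KO lay wholly above LF-KO (log2 fold change 1.31 ± 0.23, adjusted p = 0.0159), and HF-C overlapped LF-C by 1 library on each side (1.07 ± 0.29, adjusted p = 0.028).

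**Figure D4:**
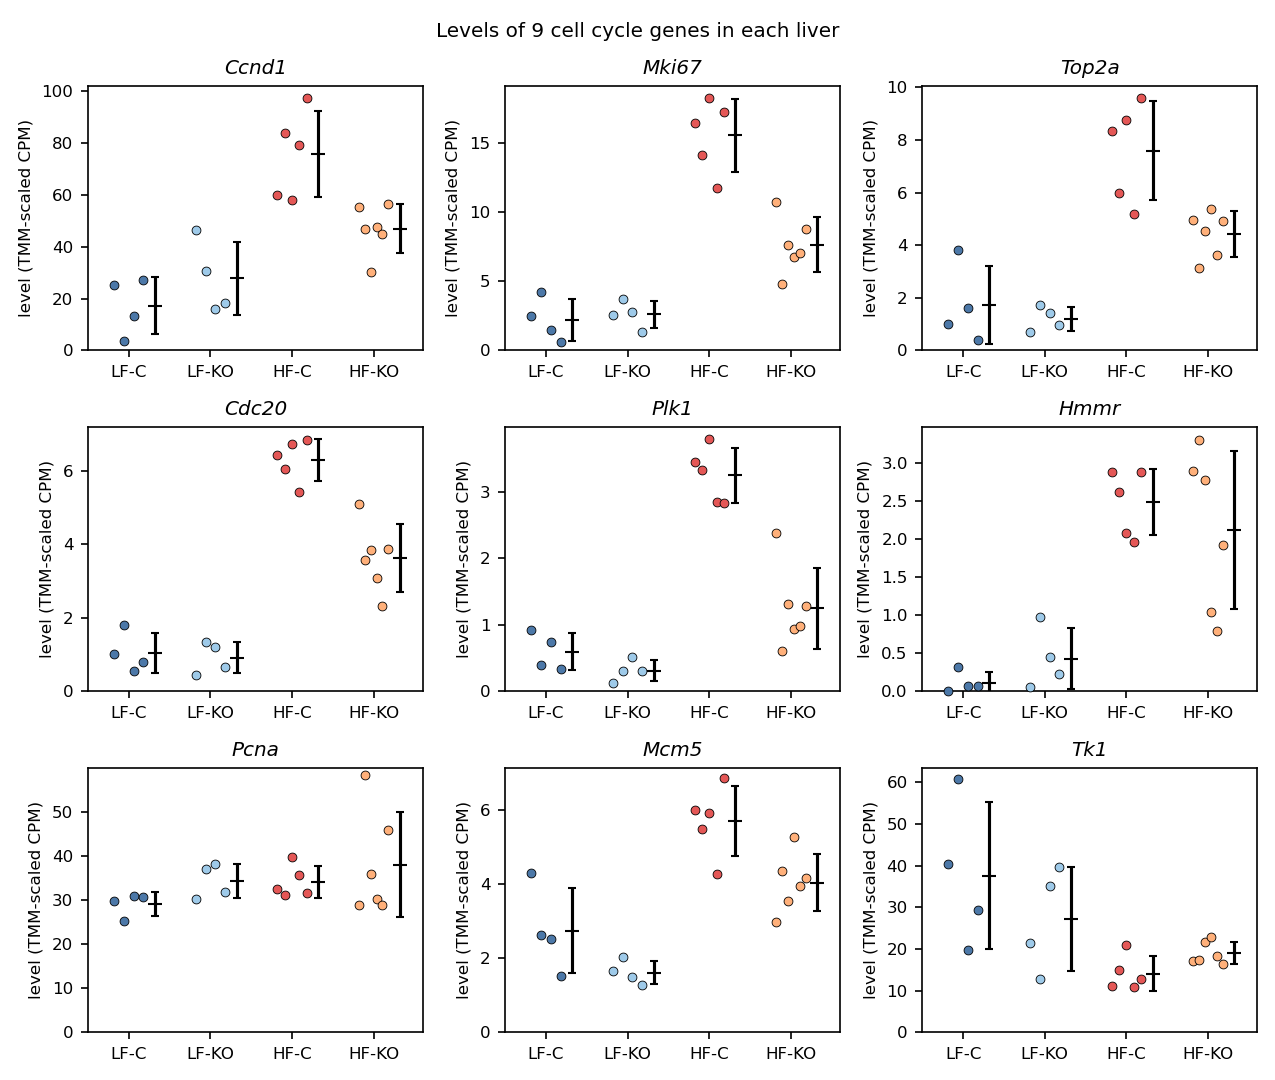
Level in TMM-scaled CPM (y axis) of 9 genes in each library (points) of the 4 groups (x axis), with the mean and SD beside them. Plk1, Cdc20, Mki67 and Ccnd1 show HF-C above HF-KO without overlap, and Hmmr shows wide spread in HF-KO. Pcna shows no rise from LF-C to HF-C that passed the test, and Tk1 was called lower in HF-C than in LF-C.

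Among the 12 mitotic kinase and checkpoint genes, 7 were higher in HF-C than in LF-C, 3 were higher in HF-KO than in LF-KO, and 5 were lower in HF-KO than in HF-C. Plk1, a master kinase of mitotic entry and exit (chr7:122159437-122169875), was at 0.918, 0.395, 0.749 and 0.333 CPM in LF-C and 0.128, 0.306, 0.523 and 0.3 CPM in LF-KO. The HF-C livers held 3.44, 3.32, 3.79, 2.85 and 2.83 CPM, and the range was 0.609 to 2.38 with a median of 1.14 CPM in HF-KO. HF-C lay above all other groups, and HF-KO lay above LF-KO but overlapped LF-C, with 5.48-fold more in HF-C than in LF-C (adjusted p = 0.00104), 4.01-fold more in HF-KO than in LF-KO (adjusted p = 0.034) and 2.51-fold less in HF-KO than in HF-C (adjusted p = 0.01). Aurkb, the kinase of the chromosomal passenger complex (chr11:69045647-69051664), was at 0.612, 0.712, 0.477 and 0.2 CPM in LF-C and 0.319, 0.306, 0.448 and 0.075 CPM in LF-KO. Under HFCF feeding, HF-C reached 2.37, 1.46, 2.75, 2.41 and 2 CPM, against 0.609 to 1.05 with a median of 0.821 CPM in HF-KO. It was 4.44-fold higher in HF-C than in LF-C (adjusted p = 0.00394) and 2.56-fold lower in HF-KO than in HF-C, and it did not pass for HF-KO against LF-KO (1.51 ± 0.41, adjusted p = 0.0555) although those groups did not overlap. These are low counts, of 1 to 9 fragments in the LF libraries for Aurkb. In each diet contrast Aurkb passed the filter through the HF group alone.

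Cdca8, borealin of the same complex, was at 0.612, 1.58, 1.36 and 0.932 CPM in LF-C and 0.702, 1.41, 1.34 and 1.42 CPM in LF-KO. On the HFCF diet it was at 3.22, 2.8, 2.96, 3.01 and 3.86 CPM in HF-C and 1.11 to 2.32 with a median of 1.69 CPM in HF-KO. HF-C lay above all other groups, by 2.79-fold over LF-C (adjusted p = 0.00711) and 1.82-fold over HF-KO (adjusted p = 0.0167), while HF-KO overlapped LF-KO (adjusted p = 0.393). Birc5, survivin, another subunit, had a log2 fold change of 0.83 ± 0.28 for HF-C against LF-C (adjusted p = 0.0656). Aurka, the centrosomal Aurora kinase, was not called, and a difference from Aurkb was not tested. It was at 4.79, 7.43, 3 and 1.86 CPM in LF-C and 2.75, 3.12, 2.84 and 3.45 CPM in LF-KO. In HF-C its level was 4.06, 3.67, 4.41, 2.79 and 3.91 CPM, and it ran from 2.8 to 4.79 with a median of 3.12 CPM in HF-KO. All groups overlapped, with -0.17 ± 0.36 for HF-C against LF-C (adjusted p = 0.773).

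The anaphase-promoting complex acts through Cdc20, its mitotic activator, and Ube2c, its ubiquitin-conjugating enzyme, and the spindle checkpoint restrains it through Mad2l1 and Bub1b. Cdc20 (chr4:118432901-118437352) was at 1.02, 1.82, 0.545 and 0.799 CPM in LF-C and 0.447, 1.35, 1.2 and 0.675 CPM in LF-KO. The HF-C livers held 6.43, 6.06, 6.74, 5.42 and 6.84 CPM, and the range was 2.33 to 5.11 with a median of 3.71 CPM in HF-KO. The HF groups were apart from each other and from both LF groups. Cdc20 was 6.05-fold higher in HF-C than in LF-C (adjusted p = 0.00068) and 3.93-fold higher in HF-KO than in LF-KO (adjusted p = 0.0144). It was 1.7-fold lower in HF-KO than in HF-C (adjusted p = 0.0195). Cdc20 overlaps Elovl1, with a mean of 653.2 counts against its own 54.8. Ube2c was 2.02 ± 0.40 and Bub1b 2.26 ± 0.27 higher on the log2 scale in HF-C than in LF-C (adjusted p = 0.00676 and 0.000637), and Bub1, with 1.93 ± 0.70, did not pass (adjusted p = 0.0796).

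Mad2l1 was at 3.98, 1.27, 4.29 and 2.6 CPM in LF-C and 2.68, 2.63, 4.18 and 2.47 CPM in LF-KO. Under HFCF feeding, HF-C reached 5.53, 5.01, 6.8, 6.41 and 5.37 CPM, against 3.44 to 6.99 with a median of 4.47 CPM in HF-KO. HF-C lay above LF-C without overlap, but the difference of 0.94 ± 0.32 did not pass (adjusted p = 0.0632). Cdca3, described in Xenopus as a trigger of mitotic entry, was at 3.57, 3, 1.57 and 1.6 CPM in LF-C and 1.79, 1.59, 2.17 and 1.2 CPM in LF-KO. On the HFCF diet it was at 5.76, 6.11, 6.17, 4.33 and 5.86 CPM in HF-C and 2.39 to 4.53 with a median of 3.31 CPM in HF-KO. It was 2.35-fold higher in HF-C than in LF-C (adjusted p = 0.0148), 2-fold higher in HF-KO than in LF-KO (adjusted p = 0.046) and 1.63-fold lower in HF-KO than in HF-C (adjusted p = 0.0316), where 1 HF-KO library exceeded the lowest HF-C library.

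Of the 10 spindle and cytokinesis genes, 9 were higher in HF-C than in LF-C, 7 were higher in HF-KO than in LF-KO and 2, Tpx2 and Prc1, were lower in HF-KO than in HF-C. Tpx2, the activator of Aurora A on spindle microtubules, was at 1.02, 1.42, 0.204 and 0.866 CPM in LF-C and 0.575, 0.856, 0.149 and 0.45 CPM in LF-KO. In HF-C its level was 4.18, 2.45, 4.51, 3.23 and 4.74 CPM, and it ran from 1 to 2.5 with a median of 1.79 CPM in HF-KO. Its rise was 4.4-fold in controls (adjusted p = 0.00784) and 3.39-fold in livers labelled knockout (adjusted p = 0.0307), and HF-KO was 2.1-fold lower than HF-C with the highest HF-KO library just above the lowest HF-C library. Prc1, the bundler of midzone microtubules, was at 1.12, 1.27, 0.953 and 0.732 CPM in LF-C and 1.28, 1.04, 1.49 and 1.2 CPM in LF-KO. The HF-C livers held 5.36, 2.97, 5.24, 3.34 and 5.42 CPM, and the range was 1.96 to 2.96 with a median of 2.79 CPM in HF-KO. No groups overlapped across diets, and the highest HF-KO value lay just under the lowest HF-C value (log2 fold change -0.73 ± 0.20, adjusted p = 0.0389).

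Kif11, the motor that separates spindle poles, was at 0.714, 0.395, 0.817 and 1.07 CPM in LF-C and 1.15, 1.35, 0.822 and 0.6 CPM in LF-KO. Under HFCF feeding, HF-C reached 3.72, 2.33, 3.89, 3.34 and 4.4 CPM, against 1.87 to 3.42 with a median of 2.42 CPM in HF-KO. It was 4.65-fold higher in HF-C than in LF-C (adjusted p = 0.00164) and 2.56-fold higher in HF-KO than in LF-KO (adjusted p = 0.0264), and the HF groups overlapped (-0.44 ± 0.21, adjusted p = 0.185). Hmmr was scarce in the LF groups and spread widely in HF-KO. Its counts in LF-C were 0, 4, 1 and 1 fragments, its level was 0.0639 to 0.979 CPM in LF-KO and 1.97 to 2.88 CPM in HF-C, and HF-KO spread from 0.798 to 3.31 CPM, wider than HF-C (-0.21 ± 0.33 for HF-KO against HF-C, adjusted p = 0.69). The kinetochore genes Cenpe and Cenpf were 2.71 ± 0.41 and 3.06 ± 0.39 higher on the log2 scale in HF-C than in LF-C, and the cytokinesis genes Kif20a, Kif23 and Anln 1.81 to 1.95 higher. Cenpe, Cenpf and Hmmr passed the filter through HF-C alone in that comparison. Nusap1, a spindle-associated protein, was the member of the role that did not pass (0.92 ± 0.29, adjusted p = 0.0516).

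Both proliferation markers were called in all 3 comparisons that involve the HFCF diet. Mki67, which encodes the Ki-67 antigen of cycling cells (chr7:135689788-135716379), was at 2.45, 4.19, 1.5 and 0.599 CPM in LF-C and 2.55, 3.73, 2.76 and 1.35 CPM in LF-KO. On the HFCF diet it was at 16.4, 14.1, 18.2, 11.7 and 17.2 CPM in HF-C and 4.79 to 10.7 with a median of 7.35 CPM in HF-KO. The HF groups were apart from each other and from the LF groups, by 7.19-fold between diets in controls (log2 fold change 2.85 ± 0.44, adjusted p = 0.0019), 2.91-fold in livers labelled knockout (1.54 ± 0.28, adjusted p = 0.0178) and 1.99-fold between HF-C and HF-KO (-0.99 ± 0.18, adjusted p = 0.00558). Top2a, the topoisomerase that untangles replicated chromosomes (chr11:98992943-99024189), was at 1.02, 3.8, 1.63 and 0.4 CPM in LF-C and 0.702, 1.71, 1.42 and 0.975 CPM in LF-KO. In HF-C its level was 8.35, 6, 8.77, 5.2 and 9.58 CPM, and it ran from 3.13 to 5.36 with a median of 4.73 CPM in HF-KO. It was 4.43-fold higher in HF-C than in LF-C (log2 fold change 2.15, adjusted p = 0.0147, and 2.86 without LF-C replicate 2, its highest LF library), 3.65-fold higher in HF-KO than in LF-KO (adjusted p = 0.012) and 1.67-fold lower in HF-KO than in HF-C (adjusted p = 0.0275), where the highest HF-KO library exceeded the lowest HF-C library. Both promoters printed above hold CHR and CCAAT letters.

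Other genes of the pathway were counted in lists made by function. These lists too were chosen with earlier results of these data known. Of 50 further mitosis genes 47 passed the filter and 25 were higher in HF-C than in LF-C, among them Pbk (log2 fold change 3.36 ± 0.45, adjusted p = 0.000986), Aspm (3.18 ± 0.49, adjusted p = 0.00198) and Kif4 (2.04 ± 0.32, adjusted p = 0.00222), and 1 was lower, Ccnf (-0.73 ± 0.19, adjusted p = 0.0216). Of 37 further replication genes 34 passed, with 3 higher, Uhrf1, Cdc6 and Clspn, and 2 lower, Mcm10 and Gins1. Of all tested genes 10.6% were higher and 7.15% lower, so the replication calls are not read as a result about that list. Uhrf1, the partner of the maintenance DNA methyltransferase, rose by 2.46 ± 0.44 on the log2 scale (adjusted p = 0.00432), and Mcm10, a factor that activates the replication helicase, had a value of -1.62 ± 0.25 (adjusted p = 0.00184). In HF-KO against LF-KO 4 of the 41 further mitosis genes tested were higher (Racgap1, Ckap2, Ect2 and Ndc80), and 2 of the 33 replication genes (Uhrf1 and Gins2). Of all tested genes 3.62% were higher in that comparison. In HF-KO against HF-C, Troap and Espl1 were lower and Spc24 higher among the 48 mitosis genes tested. Of all tested genes 5.43% were lower and 4.35% higher, so these calls are not read as a result about the list. The replication genes called included Uhrf1, which was lower, and Mcm10, which was higher. None of the genes in these lists passed in LF-KO against LF-C.

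Of 16 inhibitors of the cycle 14 passed the filter and 3, Cdkn1a, Btg2 and Cdkn2c, were higher in HF-C than in LF-C, where 10.6% of all tested genes were higher, and the other 11 did not pass the test. Cdkn1a, the p21 inhibitor of cyclin-dependent kinases, averaged 6.73 ± 4.7 CPM (SD, n = 4) in LF-C, 12.1 ± 8.95 CPM (n = 4) in LF-KO, 35.9 ± 4.73 CPM (n = 5) in HF-C and 12.4 ± 5.04 CPM (n = 6) in HF-KO. It was 2.41 ± 0.39 higher on the log2 scale in HF-C than in LF-C (adjusted p = 0.00256) and lower in HF-KO than in HF-C (-1.49 ± 0.22, adjusted p = 0.00177). Btg2, an antiproliferative gene, followed with 1.39 ± 0.17 (adjusted p = 0.000644) and -1.01 ± 0.15 (adjusted p = 0.00157), and Cdkn2c, the p18 inhibitor, was higher in HF-C (1.09 ± 0.20, adjusted p = 0.00474). Rbl2, a pocket protein of the DREAM complex, was higher in HF-KO than in HF-C (0.45 ± 0.13, adjusted p = 0.0499). Of 12 G1 regulators Cdc25a was higher in HF-C than in LF-C (0.92 ± 0.20, adjusted p = 0.0113). Of the 14 core genes of the anaphase-promoting complex none was called between diets and Anapc5 was lower in HF-KO than in HF-C (-0.31 ± 0.09, adjusted p = 0.0466). Among 9 growth factors and receptors, Btc was higher in both diet contrasts (1.97 ± 0.27 and 1.16 ± 0.30), Ereg in controls (2.75 ± 0.70), Hgf in livers labelled knockout (0.93 ± 0.24), and Hbegf was lower in HF-KO than in HF-C (-0.95 ± 0.24). Of all tested genes 3.62% were higher in HF-KO than in LF-KO, and 5.43% were lower and 4.35% higher in HF-KO than in HF-C. Without the filter neither Rbl2 nor Anapc5 was called in HF-KO against HF-C. Single calls in these lists are not read as results.

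Recruited macrophage markers moved along the same groups, and markers of other liver cells varied. Of all tested genes 10.6% were higher and 7.15% lower in HF-C than in LF-C. The shares were 3.62% and 1.06% in HF-KO against LF-KO, and 4.35% and 5.43% in HF-KO against HF-C. Counts of 1 or 2 in these short lists are not read as results. Of 12 recruited macrophage markers 11 were higher in HF-C than in LF-C, 11 were higher in HF-KO than in LF-KO and 6 were lower in HF-KO than in HF-C, with summed levels of 121 to 422 CPM in LF-C, 119 to 305 CPM in LF-KO, 819 to 1030 CPM in HF-C and 383 to 784 CPM in HF-KO. Of 7 cholangiocyte markers 3 were higher in HF-C than in LF-C, 1 was higher in HF-KO than in LF-KO and 3 were lower in HF-KO than in HF-C (25 to 153, 29.1 to 35.8, 44.1 to 94.6 and 17.1 to 50 CPM in the group order above). Of 9 stellate cell markers 3, 2 and 2 were called in the same directions (183 to 275, 121 to 183, 303 to 475 and 163 to 310 CPM). Hepatocyte markers went the other way, with 7 of 10 lower in HF-C than in LF-C, 5 lower in HF-KO than in LF-KO, and 4 higher and 1 lower in HF-KO than in HF-C (86900 to 205000, 91500 to 126000, 44400 to 58000 and 59700 to 73100 CPM). Of 12 T and NK cell markers 2 were higher in HF-C than in LF-C, and none was called in the other comparisons, with summed levels of 5.44 to 20.8 CPM over all groups. Of 6 neutrophil markers 1 was higher in each diet contrast and none was called by knockout label (3.86 to 13.8, 4.71 to 6.26, 11 to 19.2 and 9.79 to 18.3 CPM); Ly6g and Mpo were at 0 in every HF-KO library, Mpo in every LF-C library and Ly6g in every LF-KO library. Of 8 Kupffer cell markers 1 was higher and 2 lower in HF-C than in LF-C, 1 was higher in HF-KO than in LF-KO and 1 was higher in HF-KO than in HF-C (292 to 912, 212 to 321, 416 to 735 and 368 to 822 CPM). Of 8 sinusoidal endothelial markers 1 was lower in HF-C than in LF-C and 1 higher in HF-KO than in LF-KO (340 to 453, 222 to 359, 258 to 442 and 280 to 419 CPM). Of 7 erythroid markers 2 were lower in HF-C than in LF-C and 3 higher in HF-KO than in HF-C (246 to 1530, 221 to 270, 140 to 205 and 180 to 413 CPM). Of 7 B and plasma cell markers none was called (5.87 to 19.5 CPM over all groups). The part of these cell types in the cell cycle values was not tested.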

How the data were processed

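RNA of 19 livers was sequenced as non-stranded paired-end libraries with reads of 150 bases and aligned with STAR 2.5, per the labels' protocols; HTSeq 0.6.1 and DESeq2 are named in the submitters' processing notes, and the genome build is not given in the sources used here. The authors deposited 4 tables, 1 for each pair of groups, with read counts and FPKM of every library in the pair, and with a log2 fold change, p-value and adjusted p-value for each gene, per the file headers. The tables were joined on gene ID, and the 38 columns held by more than 1 table were identical. Groups follow the labels, which do not name batches. The members and gene lists were chosen with earlier results of these data known, so counts within them are descriptions.

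Counts as deposited were tested with edgeR 4.0.16 (R 4.3.3; TMM factors, default filter on expression with a minimum count of 10, quasi-likelihood F test) on the libraries of each pair, and on all 19 libraries for the difference of the diet contrasts. P-values were adjusted by Benjamini-Hochberg over all genes tested and called under 0.05. Standard errors were derived from the F statistic and the fold change. Levels are TMM-scaled CPM over all 19 libraries and compare a gene between libraries, and the deposited FPKM compares genes. Labels do not tie same-numbered libraries, and deviations of same-numbered libraries did not pair them. Nothing states that libraries are other than 1 mouse each, and p-values measure the spread between them. In simulated data of 13825 genes for HF-C against LF-C, the test recovered 100% of changes of log2 2 and 81.6% of changes of log2 1. For the difference of diet contrasts it recovered 93% and 31.3% of those sizes in 14391 genes. The simulation gave every gene the same dispersion of 0.05 and no outlying library, so recovery in the real libraries can be lower. Its changed genes were drawn at random from all genes that passed the filter. Recovery for genes as scarce as many mitotic ones was not measured apart. In the real fit of that difference Hmmr, at -2.09 ± 0.91, did not pass (adjusted p = 0.352). Per-library levels are printed for Ccnd1, for the 2 members of each role with the highest mean CPM, and for members called in HF-KO against HF-C, LF-KO against LF-C or the difference; other members are given by log2 fold change, and other lists by up to 3 called genes with the smallest p or called against the list's direction. Alternatives were median-of-ratios factors, library size alone, no filter, DESeq2 1.42.0, all 19 libraries in 1 fit, a replicate block and leaving out each library; DESeq2 without LF-KO replicate 3 or 4 was added after seeing the data. The result of 1 further replication gene is not reported here.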

Additional observations from a re-analysis of the deposited data

Results flagged for a closer look

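In 176 groups of 4 to 6 libraries, 1 gene and 1 group at a time, 9 had a highest or lowest library whose gap to its neighbour exceeded Dixon's 95% critical value, a rule that chance meets in about 1 in 20 groups. Below their groups were Mcm2 in HF-C replicate 3 (7.11 CPM, others 10 to 10.8), Cdca8 in LF-KO replicate 1 (0.702 CPM, from 11 fragments, others 1.34 to 1.42) and Cdca3 in HF-C replicate 4 (4.33 CPM, others 5.76 to 6.17). Above their groups were Aurka in HF-KO replicate 5 (4.79 CPM, others 2.8 to 3.24), Mad2l1 in LF-KO replicate 3 (4.18 CPM, others 2.47 to 2.68), Cenpe in HF-KO replicate 1 (2.67 CPM, others 1.22 to 1.69) and Nusap1 in HF-C replicate 5 (3.76 CPM, others 2.23 to 2.48). Melk and Kif23 were both highest in HF-KO replicate 6, at 0.694 CPM (14 fragments, others 0.261 to 0.407) and 2.93 CPM (others 1.54 to 1.92).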

How the results depend on the processing

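Called members kept their direction under every alternative run, and no call turned to the opposite side. In HF-C against LF-C the count higher ran from 26 to 33 under the scaling, filter, DESeq2 and single-fit alternatives and from 24 to 33 when libraries were left out in turn. In HF-KO against LF-KO the count higher, 15 in the report, was 23 with library size alone and 23 with DESeq2, and ran from 0 to 21 over the left-out libraries, while the count lower ran from 0 to 1, the 1 being Rrm2 without LF-KO replicate 1 and Tk1 without LF-KO replicate 2. In HF-KO against HF-C the count lower was 4 with all 19 libraries in 1 fit and ran from 6 to 13 over the left-out libraries, and the count higher from 0 to 1 (Tk1). For the difference of the diet contrasts DESeq2 called 1 member lower and leaving out libraries 0 to 1, in both cases Ccna2. The replicate numbers do not pair the libraries (correlations of same-numbered deviations from -0.244 to 0.284, and not every library was closest to its own number). With them as a replicate block, the counts were 15 higher and 0 lower in HF-C against LF-C, 3 higher in HF-KO against LF-KO and 7 lower in HF-KO against HF-C. The cause of these shifts was not tested. With library size alone the fitted value crossed 0 for 5 uncalled members in HF-C against LF-C (Ccne1, Rrm2, Tyms, Mcm7 and Aurka), for 2 in HF-KO against LF-KO and for 4 in HF-KO against HF-C. Some mitotic genes had fewer than 10 fragments in LF libraries, among them Plk1 and Hmmr, which limits their precision, and intervals on a count cover counting error alone.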
